A study of Mus musculus with 5 samples.

Results

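Iron handling and metal binding were followed through 10 genes in mouse liver nuclei, namely Hamp and Hamp2, Bmp6, Tfrc, Trf, Slc40a1, Fth1, Ftl1, Mt1 and Mt2. They were chosen by symbol, without use of their values, and all 10 were present among the 32285 genes listed in the deposited matrices. The study sequenced RNA of single nuclei from livers of male wild-type C57BL6/J mice, with 3 libraries from mice on chow and 2 libraries from mice with metabolic dysfunction-associated steatohepatitis (MASH). MASH is the inflammatory and fibrotic stage of fatty liver disease, and it was brought on by a diet that drew 40% of its energy from fat and 20% from fructose and held 2% cholesterol. Both diets began at an age of 10 to 12 weeks and lasted 5 months, and neither group carried a transgene or a gene deletion. The sources used here do not say if 1 animal or several went into each library, so the p-values measure only the spread between these libraries. UMIs (unique molecular identifiers, each standing for 1 captured RNA molecule) were summed per library over hepatocyte, macrophage and endothelial nuclei, and diet was compared over libraries.

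The liver sets the iron level of the body through hepcidin, a peptide hormone encoded by Hamp in hepatocytes. Hepcidin binds ferroportin, the only known iron exporter of mammalian cells, and causes its breakdown, so that less iron leaves macrophages and the gut. Hamp transcription is driven by BMP6 and BMP2 from liver endothelial cells through SMAD proteins, and by the inflammatory cytokine IL-6 through STAT3. Iron-regulatory proteins bind hairpins called iron-responsive elements in the transcripts of ferritin, ferroportin and the transferrin receptor. Metallothioneins are small proteins that bind zinc and copper, and their genes respond to metals, glucocorticoids and acute inflammation.

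The 10 genes lie at known places in the mouse genome (GRCm38, GENCODE M21). Hamp (hepcidin, ENSMUSG00000050440) is at chr7:30942368-30944032 on the minus strand, and its paralog Hamp2 (ENSMUSG00000056978) is at chr7:30922372-30924681 on the same strand, 17687 bases away. Mt2 (ENSMUSG00000031762) at chr8:94172664-94173568 and Mt1 (ENSMUSG00000031765) at chr8:94179082-94180327, both on the plus strand, are 5514 bases apart. Slc40a1 (ferroportin, ENSMUSG00000025993) is at chr1:45908068-45926523 on the minus strand, Tfrc (transferrin receptor, ENSMUSG00000022797) at chr16:32608920-32632794 on the plus strand, and Trf (transferrin, ENSMUSG00000032554) at chr9:103204001-103230444 on the minus strand. The ferritin heavy chain gene Fth1 (ENSMUSG00000024661) is at chr19:9980598-9985098 on the plus strand, the light chain gene Ftl1 (ENSMUSG00000050708) at chr7:45457944-45459884 on the minus strand, and Bmp6 (ENSMUSG00000039004) at chr13:38345107-38500302 on the plus strand. Hamp and Hamp2 are both overlapped on the other strand by Gm44662, Mt2 by Gm45774, Ftl1 by Gm10252 and Bmp6 by Txndc5. Trf shares its strand with Gm20425 and Ftl1 with Gm22133. The sources used here do not say whether counting used strand, so reads of such overlapping genes, of the near-identical pair Hamp and Hamp2, and of Ftl1 and its copy Ftl1-ps1 may be split between them.

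The sequences just before the starts of Hamp and Hamp2 were searched for the sites through which the BMP and STAT3 inputs are known to act on Hamp. Of the 10 genes, 8 had a promoter window in the RefSeq table. The letters GGCGCC (the core of a BMP-response element) and TTCNNNGAA (a STAT site) were searched on both strands of the 250 bases before each start. In Hamp, which held both, they do not overlap. The 120 bases nearest the start are printed from 5′ to 3′ (RefSeq, GRCm38.p6), for Hamp chr7:30944030-30944149 and for Hamp2 chr7:30924182-30924301, both on the minus strand, with matches in capitals. The windows end at the RefSeq start, which for Hamp2 lies inside the longer GENCODE gene given above, so that its printed bases fall within that gene:
Hamp: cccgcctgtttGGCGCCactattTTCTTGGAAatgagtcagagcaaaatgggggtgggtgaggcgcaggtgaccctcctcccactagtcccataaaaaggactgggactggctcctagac
Hamp2: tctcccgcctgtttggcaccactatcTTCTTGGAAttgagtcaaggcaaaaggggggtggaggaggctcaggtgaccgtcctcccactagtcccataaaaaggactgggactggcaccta

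Hamp held both motifs, starting 109 and 97 bases before its start, and Hamp2 held the STAT letters 94 bases before its start but no GGCGCC in this window. Among the other genes with a window, Tfrc alone held a match (GGCGCC, 89 bases before its start). Across 32851 windows of the same length, 9.59% held GGCGCC, 7.02% held TTCNNNGAA and 0.368% held both.

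Iron-responsive elements were found in 4 of the 10 genes by a search for the loop CAGTG, an unpaired C before the upper stem, and a stem of 5 base pairs (G paired with T allowed). The same search matched 123 of 21877 genes with a protein-coding transcript (0.562%). The match is in the 5′ UTR of Fth1 (chr19:9982735-9982757, plus strand), Ftl1 (chr7:45459782-45459804, minus strand) and Slc40a1 (chr1:45925468-45925490, minus strand), where protein binding is known to block translation. In Tfrc 4 matches are in the 3′ UTR, where binding is known to protect the transcript. These are the elements, with the loop in capitals and the Tfrc elements at chr16:32631222-32631244, chr16:32631601-32631623, chr16:32631666-32631688 and chr16:32631713-32631735 on the plus strand in that order:
Fth1: ctgcttcaaCAGTGcttgaacgg
Ftl1: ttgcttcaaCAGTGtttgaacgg
Slc40a1: cttcagctaCAGTGttagctaag
Tfrc element 1: tatcggaagCAGTGccttccata
Tfrc element 2: tatcgggagCAGTGtcttccata
Tfrc element 3: tatcggagaCAGTGatctccata
Tfrc element 4: tatcgggaaCAGTGtttcccata

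The libraries held 8633 to 12935 barcodes and 35612373 to 49137377 UMIs each, and 7969 to 11574 nuclei per library were kept. Pairs of libraries shared 23 to 48 barcodes. MASH replicate 1 had the highest median mitochondrial share (7.35%, against 0.88% in the lowest library). Hepatocyte nuclei (at least 2000 UMIs and 1 UMI of Hnf4a, a hepatocyte transcription factor) numbered 3825, 5931 and 6254 in chow replicates 1 to 3 and 2347 and 2235 in MASH replicates 1 and 2. There were 57 to 112 macrophage nuclei per chow library and 381 and 310 per MASH library, and 224 to 787 endothelial nuclei per library. All 13 macrophage and all 12 endothelial check markers were higher in their own class, whereas 6 of 12 hepatocyte check markers were. Secreted hepatocyte transcripts were plentiful in every class, with Alb at a mean of 2856 CPM in hepatocyte nuclei and 6248 CPM in the other classes. Free RNA in droplets is known to give such counts, and their level is set beside each gene it touches.

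In hepatocytes, Hamp, Mt1 and Mt2 were lower in MASH, and none of the 10 genes was higher. Their log2 fold changes were -2.52 for Hamp, -5.95 for Mt1 and -4.97 for Mt2, and for these genes every MASH library lay below every chow library. By edgeR's quasi-likelihood test (adjusted p under 0.05 over 15141 genes) 3 of 10 were called, against 12.1% of all genes tested. Other hepatocyte transcripts moved in the same direction: of the 12 hepatocyte check markers 0 rose and 3 fell, all 12 had negative values, their median was -1.52 against -0.01 over all genes, and Hnf4a was at -1.07 (adjusted p = 0.08). Of 13 macrophage check markers 8 rose and 0 fell in the same sums (median 1.57). The part of these shifts in the values of the 10 genes was not tested. Levels are given as scaled CPM, the UMIs of a gene as a share of all UMIs of the class in that library in the usual unit CPM after edgeR's TMM scaling, in the order chow replicates 1, 2 and 3 and then MASH replicates 1 and 2.

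Hamp stood at 746, 848 and 1652 scaled CPM in chow and at 229 and 148 in MASH, or 1082 ± 496 (SD, n = 3) against 188.5 ± 56.7 (SD, n = 2). The lowest chow library was above the highest MASH library, and chow replicate 3 was highest. The log2 fold change was -2.52 (SE 0.49, 95% interval -3.65 to -1.39, adjusted p = 0.0209). It was -2.10 (adjusted p = 0.00979) without chow replicate 3, and the call was lost without chow replicate 2 (adjusted p = 0.052), MASH replicate 1 (0.153) or MASH replicate 2 (0.202), at log2 fold changes of -2.70, -2.87 and -2.24.

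Hamp2, whose peptide lacks a known iron-regulating role, was not called. It was at 3.33, 7.35 and 3.77 scaled CPM in chow and 4.98 and 8.34 in MASH, from 73 to 187 UMIs per library. The groups overlapped, and the log2 fold change was 0.47 (SE 0.45, 95% interval -0.59 to 1.52, adjusted p = 0.511).

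The metallothioneins moved furthest of the 10 genes between diets and also between chow libraries. Mt1 was at 703, 933 and 11020 scaled CPM in chow and at 55.8 and 80.8 in MASH. Chow replicate 3 was 15.7 times chow replicate 1, and both MASH libraries were below all chow libraries. The log2 fold change was -5.95 (SE 1.46, 95% interval -9.34 to -2.55, adjusted p = 0.0407).

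Mt2 was at 297, 528 and 3190 scaled CPM in chow and at 40.7 and 44.5 in MASH. It had the same high library and again no overlap between the groups, with a log2 fold change of -4.97 (SE 1.13, 95% interval -7.60 to -2.35, adjusted p = 0.0328). Without chow replicate 3 the differences were smaller but still called, at -3.59 for Mt1 (adjusted p = 0.00263) and -3.28 for Mt2 (adjusted p = 0.0032). Without chow replicate 2, MASH replicate 1 or MASH replicate 2 they were not called, with adjusted p of 0.0614, 0.261 and 0.216 for Mt1 and 0.0595, 0.226 and 0.199 for Mt2.

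**Figure D1:**
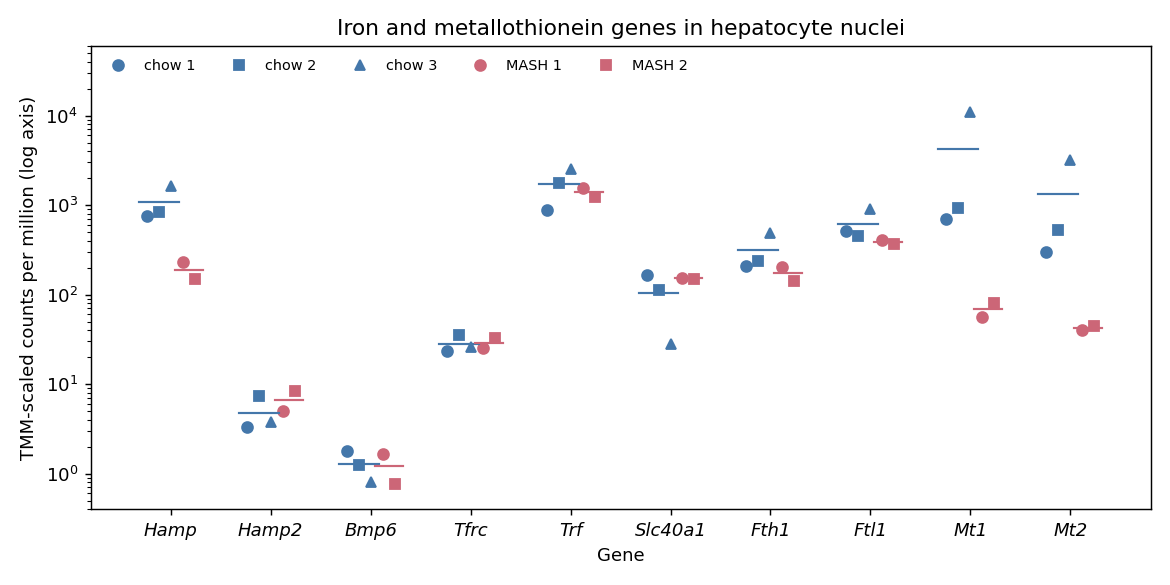
Level of the 10 genes in hepatocyte nuclei of each library (y axis: scaled CPM, log axis; points are libraries, lines are group means of 3 chow and 2 MASH libraries). Hamp, Mt1 and Mt2 have both MASH points below all chow points, and chow replicate 3 stands far above the other libraries for Mt1 and Mt2.

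The ferritin genes had lower scaled levels in both MASH libraries without passing the test. Fth1, the chain that oxidises iron for storage, was at 209, 239 and 489 scaled CPM in chow and 204 and 143 in MASH. The MASH libraries lay just below the chow libraries, and the log2 fold change was -0.85 (SE 0.43, 95% interval -1.84 to 0.14, adjusted p = 0.21). Ftl1, the chain that stabilises the ferritin shell, was at 512, 451 and 893 in chow and 410 and 371 in MASH, with a log2 fold change of -0.66 (SE 0.38, 95% interval -1.55 to 0.22, adjusted p = 0.266). For both ferritin genes chow replicate 3 was the highest library, and without it the values were -0.39 and -0.32. The separation rested on the scaling. Without TMM the log2 fold changes were -0.46 for Fth1 and -0.30 for Ftl1, and the groups overlapped, with Ftl1 at 455 and 439 CPM in MASH against 416 in chow replicate 2 and Fth1 at 226 in MASH replicate 1 against 221 in chow replicate 2.

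Slc40a1 ran the other way within chow. It was at 167, 114 and 28.1 scaled CPM in chow and at 153 and 150 in MASH. The MASH libraries fell inside the chow range, which spanned 5.96-fold with chow replicate 3 lowest. The log2 fold change was 0.56 (SE 0.60, 95% interval -0.84 to 1.95, adjusted p = 0.558), and it was 0.09 (adjusted p = 0.846) without chow replicate 3.

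The genes of iron transport into cells showed no call. Tfrc, the receptor that takes up transferrin-bound iron, was at 23.7, 35.3 and 25.8 scaled CPM in chow and 25.2 and 32.5 in MASH. The groups overlapped closely (log2 fold change 0.03, SE 0.27, 95% interval -0.60 to 0.66, adjusted p = 0.956). Trf, the plasma iron carrier, was at 885, 1764 and 2552 in chow and 1563 and 1233 in MASH, with both MASH libraries inside the chow range (log2 fold change -0.31, SE 0.50, 95% interval -1.46 to 0.84, adjusted p = 0.70). Bmp6, the inducer of hepcidin that is known to rise with liver iron, was at the edge of detection in hepatocytes, at 0.769 to 1.78 scaled CPM from 13 to 40 UMIs per library (log2 fold change -0.09, adjusted p = 0.93).

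Within chow, the 10 genes differed widely in how much libraries of the same diet varied. The ratio of the highest to the lowest chow library in hepatocytes was 1.49 for Tfrc, 1.98 for Ftl1, between 2.21 and 2.34 for Hamp, Hamp2, Bmp6 and Fth1, 2.88 for Trf, 5.96 for Slc40a1, 10.7 for Mt2 and 15.7 for Mt1. The library that set the ends was the same for Mt1, Mt2, Hamp, Trf, Fth1, Ftl1 and Slc40a1: chow replicate 3, which was highest for the first 6 and lowest for Slc40a1.

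Chow replicate 3 also stood apart in acute-phase genes of the hepatocyte, which were given for all libraries because IL-6 is known to act on both Hamp and the metallothioneins. Saa1 (serum amyloid A) was at 724, 130 and 8893 scaled CPM in chow and 93.4 and 88.1 in MASH. Serpina3n, a secreted protease inhibitor, was at 224, 130 and 3997 in chow and 42.1 and 48.3 in MASH. Lcn2, which binds bacterial iron carriers, was at 4.88, 6.92 and 490 in chow and 41.2 and 33.2 in MASH. These 3 genes did not pass the test of diet (adjusted p = 0.0868, 0.0782 and 0.424), and their part in the values of the 10 genes was not tested.

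**Figure D2:**
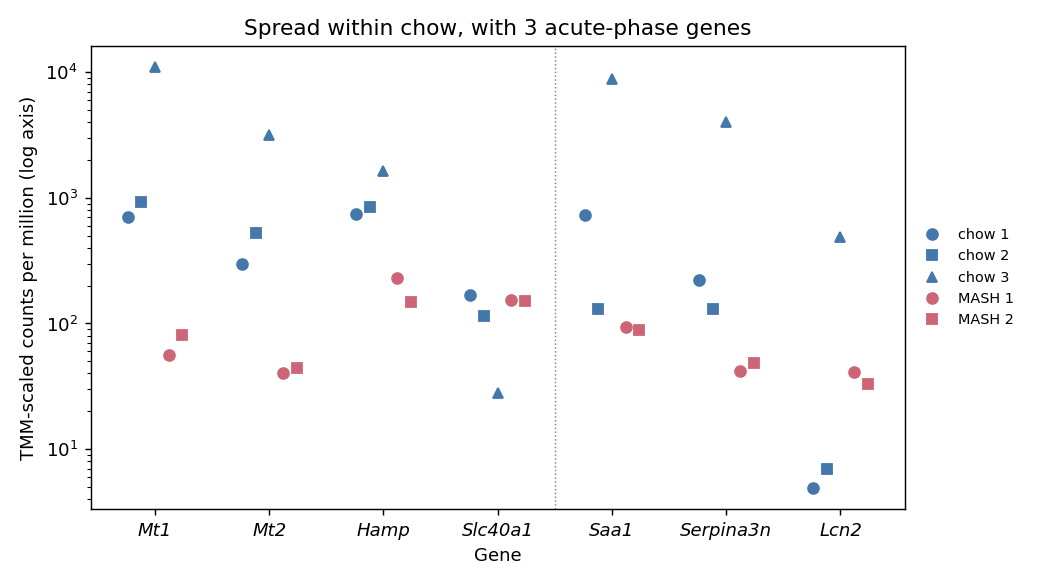
Levels of Mt1, Mt2, Hamp and Slc40a1 and of the acute-phase genes Saa1, Serpina3n and Lcn2 in hepatocyte nuclei of the 5 libraries (y axis: scaled CPM, log axis; each point is a library). Chow replicate 3 is the highest library for all but Slc40a1, where it is the lowest at 28.1.

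The share of hepatocyte nuclei with a Hamp UMI was also lower in both MASH libraries. After thinning every nucleus to 2000 UMIs, so that depth was equal, Hamp was seen in 48.7%, 58.7% and 74.3% of chow nuclei and in 26.3% and 22.6% of MASH nuclei. The groups did not overlap, and the difference in means was -36.1 percentage points (two-sided exact permutation test, p = 0.1, the smallest that 3 against 2 libraries allow). Before thinning, the mean shares were 75.8% in chow and 38.1% in MASH. The UMIs were also less evenly spread: the tenth of nuclei with the most Hamp held 38.6% to 48.6% of all Hamp UMIs in chow and 63.3% and 61.2% in MASH.

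Mt1 was seen in 30.5%, 64.4% and 99.95% of thinned chow hepatocyte nuclei and in 8.39% and 13.0% of MASH nuclei, so that nearly every nucleus of chow replicate 3 held it. Mt2 followed, at 20.9%, 50.4% and 97.8% in chow and 5.11% and 7.29% in MASH. Slc40a1 was seen in 25.0%, 16.8% and 3.37% of chow nuclei and 23.1% and 26.5% of MASH nuclei, with chow replicate 3 again apart from the rest (exact permutation p = 0.3). The exact test was run for all 10 genes, and with this design none could fall below 0.05.

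Free RNA sets a limit on how such shares can be read. When all nuclei were thinned to 500 UMIs, Hamp was seen in 25.4%, 27.4% and 38.4% of chow hepatocyte nuclei and 9.59% and 8.10% in MASH. Endothelial nuclei, which should lack it, still showed 12.8%, 17.4% and 36.7% in chow and 6.21% and 4.96% in MASH. The hepatocyte share was above the endothelial share in every library, by the least in chow replicate 3. For Mt1 the hepatocyte shares at this depth were 19.1%, 29.98% and 96.5% in chow and 2.98% and 4.92% in MASH, against 5.27%, 28.6% and 57.7% and then 3.495% and 3.94% in endothelial nuclei. In chow replicate 2 and both MASH libraries the Mt1 share was thus close to or below that in endothelial nuclei. The Hamp share in chow replicate 3 was also close. Shares at this depth cannot tell the transcripts of a hepatocyte nucleus from free hepatocyte RNA in those libraries. They set Mt1 well above the endothelial share in chow replicates 1 and 3. Mt2 was in 1.75% and 2.01% of MASH hepatocyte nuclei against 1.36% and 2.29% of endothelial nuclei, and in 11.1%, 20.2% and 68.9% against 2.24%, 15.6% and 27.2% in chow. The median depth before thinning was 3867 to 5351 UMIs in hepatocyte nuclei and 930 to 1288 in endothelial nuclei.

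Hepatocytes differ along the lobule from the portal vein (periportal) to the central vein (pericentral). The nuclei of each library were split into 3 equal groups by their pericentral minus periportal marker score, in which none of the 10 genes was used. Of the marker genes left out of the score, 7 of 7 periportal and 6 of 7 pericentral genes were on their named side in all 5 libraries. Levels along the lobule are given as CPM of each group without TMM scaling, as a description.

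In MASH, the Hamp level was several times higher on the portal than on the central side. It was at 456, 221 and 77.6 CPM in the periportal, middle and pericentral groups of MASH replicate 1 and at 335, 151 and 55.0 in MASH replicate 2. Chow libraries had a flatter profile that peaked in the middle group, with 925, 1119 and 430 CPM in chow replicate 1, 809, 939 and 593 in chow replicate 2, and 1044, 1511 and 1182 in chow replicate 3. The periportal level was 5.88 and 6.10 times the pericentral level in MASH, against 2.15, 1.36 and 0.88 times in chow. Endothelial nuclei, whose Hamp is read below as free RNA, were at 426, 472 and 836 CPM in chow and 175 and 129 in MASH. The pericentral groups of both MASH libraries lay below that endothelial level. The part of free RNA in these groups and in the slope was not tested.

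Hamp2 had the same kind of slope in MASH although its total was not called. Its periportal level was 8.24 and 12.98 times its pericentral level in MASH and 1.95, 1.11 and 1.18 times in chow. The MASH ratios are imprecise, as they rest on 5 and 8 UMIs in the pericentral groups, against 43 and 94 in the periportal groups. In MASH replicate 2 Hamp2 went from 20.8 CPM in the periportal group to 8.14 in the middle and 1.60 in the pericentral group. Every library thus had more Hamp2 on the portal side, with the MASH ratios well outside the chow range.

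The difference in slope was tested in 1 model over the 15 library-by-group sums with the library as a block. For Hamp the diet difference was more negative on the pericentral than on the periportal side (interaction -2.06 on the log2 scale, SE 0.25, 95% interval -2.60 to -1.52, adjusted p = 0.000143). For Hamp2 the interaction was -2.98 (SE 0.41, adjusted p = 0.000313). Trf went the other way at 0.51 (SE 0.11, adjusted p = 0.00965), as its periportal level was 1.68, 1.34 and 1.27 times the pericentral level in chow but 1.02 and 1.10 times in MASH. These 3 of 10 genes were called, against 6% of all 14200 genes tested. Zone markers left out of the score also moved with diet. The median log2 fold change of the 7 periportal markers was -1.35 in the pericentral and -0.43 in the periportal group. For the pericentral markers it was -0.11 (7 tested) and 0.31 (6 tested). Whether the groups hold the same part of the lobule in both diets was not tested. The Hamp call held without any 1 library (-2.37 to -1.71), the Hamp2 call was lost without MASH replicate 2 (-2.58, adjusted p = 0.0668), and the Trf call without MASH replicate 1 (0.48, adjusted p = 0.191) or MASH replicate 2 (0.55, adjusted p = 0.142).

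The metallothionein slope differed more between chow libraries than between diets. Mt1 was at 1435, 901 and 78.1 CPM across the groups of chow replicate 1, at 1036, 924 and 623 in chow replicate 2 and at 8246, 8711 and 8034 in chow replicate 3. In MASH it was at 76.5, 79.0 and 28.9 in replicate 1 and at 145, 111 and 36.3 in replicate 2. Its periportal level was thus 18.4, 1.66 and 1.03 times the pericentral level in chow and 2.64 and 3.99 times in MASH, so the chow libraries spanned both sides of the MASH libraries. The interaction was -0.33 for Mt1 (adjusted p = 0.88) and -0.40 for Mt2 (adjusted p = 0.874). Without chow replicate 1, whose slope was the steepest, both were called, at -1.28 (adjusted p = 0.000367) and -1.34 (adjusted p = 0.000301).

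**Figure D3:**
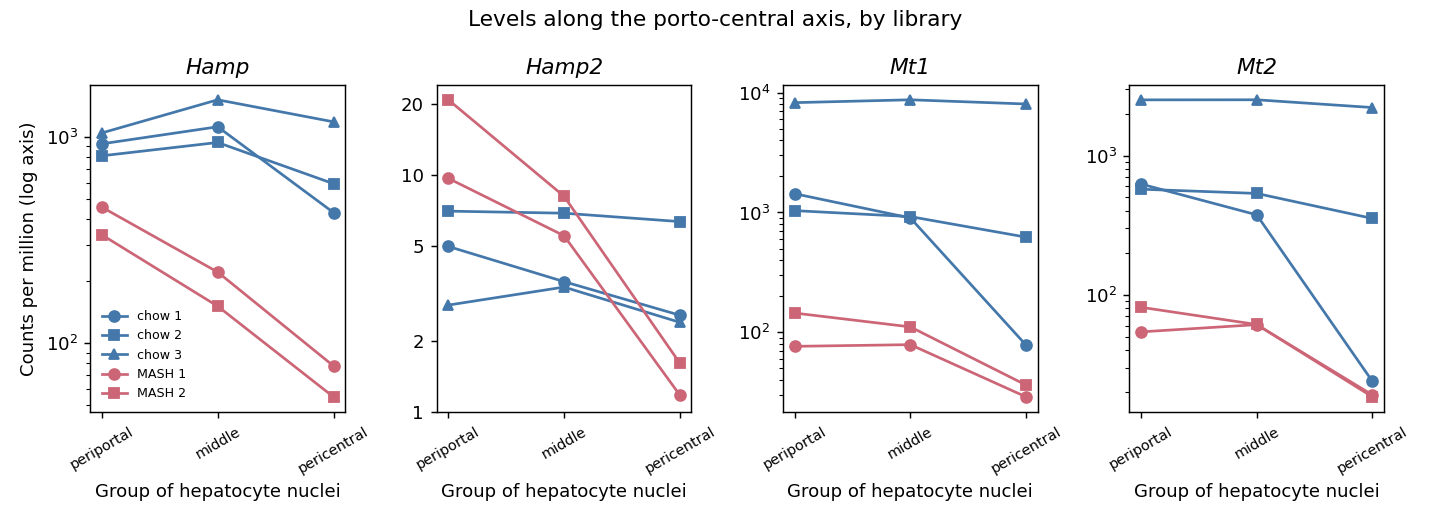
Hamp, Hamp2, Mt1 and Mt2 in the periportal, middle and pericentral group of hepatocyte nuclei (x axis) of each library (y axis: CPM without TMM scaling, with a range of its own per panel; each line is a library). The MASH lines of Hamp and Hamp2 drop toward the pericentral group by 5.88 to 12.98 times, while the chow lines are flatter. The pericentral Hamp2 points of MASH replicates 1 and 2 rest on 5 and 8 UMIs. The pericentral Hamp points of these libraries lie below the Hamp level of their endothelial nuclei (175 and 129 CPM), which is read as free RNA.

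Slc40a1 was higher in the periportal than in the pericentral group in all 5 libraries, by 1.06 to 1.49 times, and Ftl1 was lower in all 5, at 0.81 to 0.94 times the pericentral level. Neither slope differed by diet in the test (interaction 0.16 for Slc40a1 and 0.12 for Ftl1). For Tfrc the interaction was -0.41 (adjusted p = 0.161), and Fth1 and Bmp6 were at 0.03 and 0.29.

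Tested within each group of nuclei, the diet difference of Hamp was called in each of the 3 and was -1.59 (adjusted p = 0.0429) in the periportal, -3.03 (0.0154) in the middle and -3.82 (0.0187) in the pericentral group. In the periportal group 3 of 9 tested genes were called, against 10.7% of all genes, and in the middle group 3 of 10, against 8.51%. In the pericentral group Hamp alone of 10 was called, against 8.53% of all genes. Mt1 and Mt2 were the other genes called in the periportal (-5.55 and -4.70, adjusted p = 0.0359 and 0.0267) and middle groups (-5.75 and -4.72, adjusted p = 0.0482 and 0.0404), and in the pericentral group, where chow libraries spanned 144-fold and 130-fold, they were at -6.98 and -6.00 (adjusted p = 0.0806 and 0.085). Hamp2 was at 1.29 (adjusted p = 0.0953) in the periportal group, with both MASH libraries above chow, and at -1.66 (adjusted p = 0.132) in the pericentral group, with both below. Leaving out MASH replicate 1 or MASH replicate 2 left no call for Hamp, Mt1 or Mt2 in any of the 3 groups (adjusted p of 0.132 or more), and leaving out chow replicate 2 ended that of Hamp in the periportal group (adjusted p = 0.0693) and those of Mt1 and Mt2 in the middle group (0.0713 and 0.07). In the pericentral group Mt1 and Mt2 were called without chow replicate 1 (adjusted p = 0.0237 and 0.0173) and Mt1 also without chow replicate 3 (-3.60, adjusted p = 0.0487). With 5 groups in place of 3, Hamp in the periportal group (-1.35, adjusted p = 0.0734) and Mt1 in the middle group (-5.60, adjusted p = 0.0567) were no longer called.

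Across cell classes, Slc40a1 and Bmp6 each stood out in a class other than the hepatocyte. Levels between classes are given as CPM without TMM scaling, and the free RNA is gauged by secreted hepatocyte transcripts (the hepatocyte check list), whose median level in macrophage nuclei was 0.589 to 1.16 times, and in endothelial nuclei 0.872 to 1.33 times, that in hepatocyte nuclei of the same library. Hamp was at 0.275 to 0.777 times its hepatocyte level in macrophage and 0.524 to 0.736 times in endothelial nuclei, and Mt1 at 0.0827 to 0.669 times in macrophage nuclei. Trf was at 0.763 to 1.81 times in macrophage nuclei. The levels of Hamp and Mt1 there are at or below that of free hepatocyte RNA and are read as background, and single genes of the check list spanned 0.236 to 2.69 times in macrophage nuclei. Trf marked no class: the mean in hepatocyte nuclei was the lowest in both diets (1506 CPM in chow and 1598 in MASH), and its range overlapped that of the next class. Its macrophage ratios lie within the span of the single check-list genes, and Alb was likewise lower in hepatocyte nuclei than in the other classes. The Trf levels outside hepatocytes are thus not told apart from free hepatocyte RNA.

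Among the classes, the ferroportin transcript was highest in macrophage nuclei. Slc40a1 was at a mean of 1665 CPM in chow macrophage nuclei (1171 to 1937), above stellate nuclei (188), endothelial nuclei (161) and hepatocyte nuclei (103), and the macrophage range overlapped no other class. The other 3 classes overlapped one another. In MASH the macrophage level was 916 CPM (906 to 925). Thinned to 500 UMIs, Slc40a1 was seen in 58.5%, 54.4% and 49.1% of chow macrophage nuclei and 33.9% and 32.9% of MASH macrophage nuclei, against 1.09% to 8.01% of hepatocyte nuclei per library.

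Macrophage RNA in the hepatocyte nuclei gives a scale for the hepatocyte Slc40a1 level. The macrophage genes Clec4f, Cd74 and C1qa were in hepatocyte nuclei at 0.509% to 10.1% of their macrophage level. Slc40a1 at those shares would be at 8.58 to 48.4 CPM in chow and 8.81 to 91.9 CPM in MASH. In chow replicate 3 the range was 9.87 to 22.8 CPM and Slc40a1 was measured at 21.2, whereas the other 4 libraries were above their own ranges at 105 to 182 CPM. The summed macrophage check markers in hepatocyte nuclei were 54.4 to 62.7 CPM in chow and 180.7 and 320.1 in MASH, with 13 of 13 seen.

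Bmp6 was highest in endothelial nuclei. It was at a mean of 48.1 CPM in chow endothelial nuclei (40.2 to 54.2) against 1.23 in hepatocyte, 1.30 in stellate and 0 in macrophage nuclei, where a count of 0 allows up to 6.97 CPM over the chow nuclei together. In MASH it was at 16.7 CPM (15.3 to 18.0), above the range in cholangiocyte nuclei, the next class with a mean of 7.85. Thinned to 500 UMIs, it was seen in 3.51%, 3.12% and 4.01% of chow and 0.39% and 1.14% of MASH endothelial nuclei.

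The ferritin genes were higher in macrophage than in hepatocyte nuclei in every library. Fth1 was at 1.86 to 3.03 times and Ftl1 at 1.41 to 2.35 times the hepatocyte level in the macrophage nuclei of the 5 libraries. The highest gene of the hepatocyte check list reached 1.10 to 2.69 times there, so these ratios overlap with those that free hepatocyte RNA can have. Endothelial nuclei had 1.43 to 2.28 times the hepatocyte level for Fth1 and 1.02 to 2.19 times for Ftl1.

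**Figure D4:**
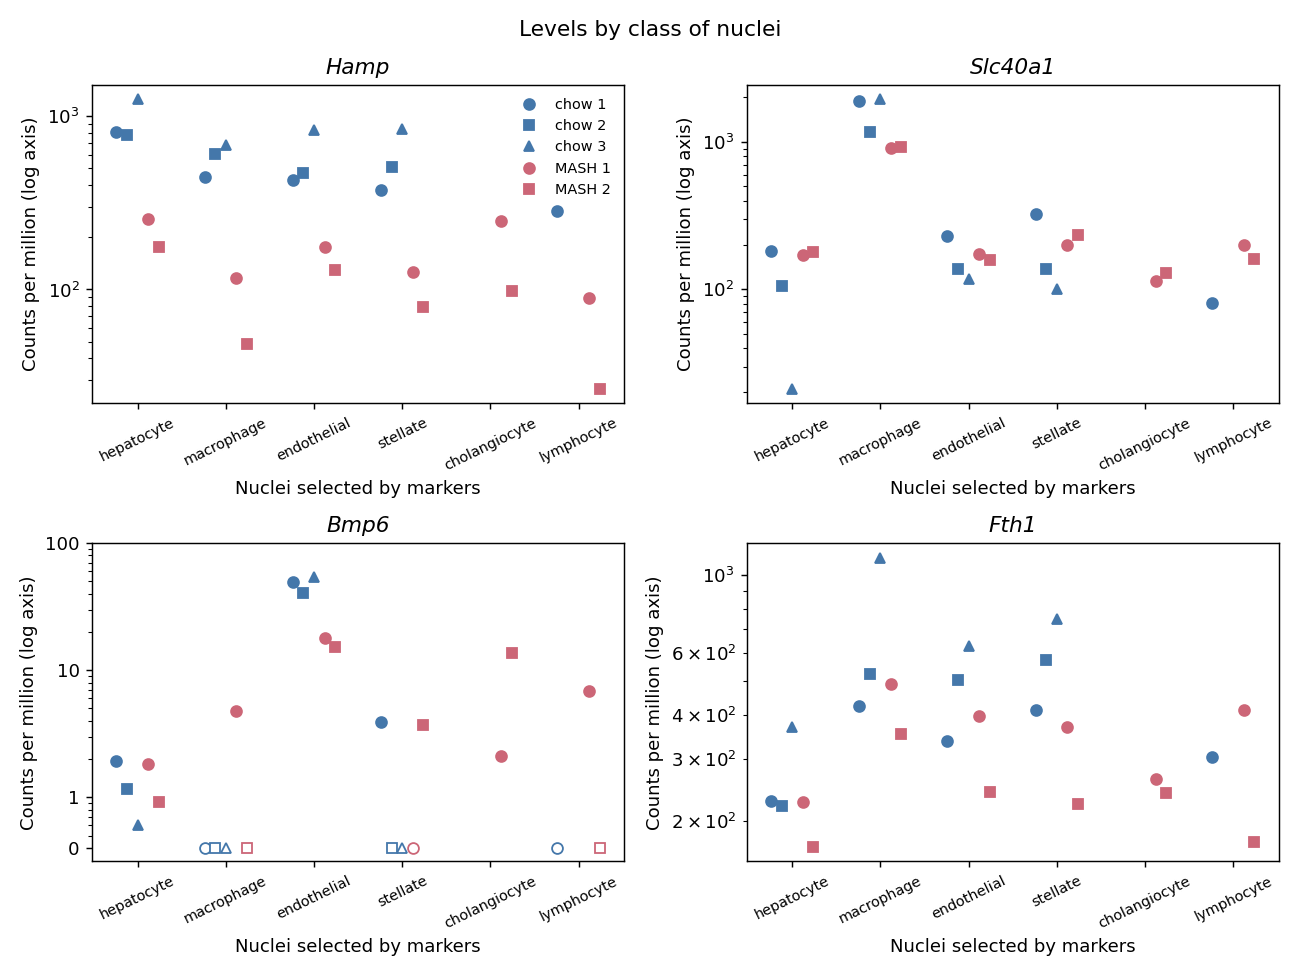
Hamp, Slc40a1, Bmp6 and Fth1 in 6 classes of nuclei (x axis) by library (y axis: CPM without TMM scaling, log axis; filled symbols are libraries with a UMI, open symbols are libraries at 0; libraries with under 20 nuclei of a class are left out). Slc40a1 stands out in macrophage nuclei at 906 to 1937 CPM and Bmp6 in endothelial nuclei at 15.3 to 54.2 CPM, while Hamp is spread over all classes.

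Diet was then compared in the macrophage nuclei, where 1 of 7 tested genes was called, against 1.78% of all genes. Slc40a1 was at 2083, 1483 and 2268 scaled CPM in chow and 1188 and 1001 in MASH. Both MASH libraries were below all chow libraries, yet the log2 fold change of -0.83 (SE 0.45, 95% interval -1.84 to 0.17) did not pass the test (adjusted p = 0.498). Without scaling, macrophage nuclei holding a UMI of Gpnmb, a gene of lipid-associated macrophages, had 671 and 691 CPM of Slc40a1 in MASH replicates 1 and 2. Nuclei without Gpnmb had 1167 and 1610 in MASH and 1171 to 1935 in chow, and their diet difference was -0.25 (adjusted p = 0.922). Nuclei with Gpnmb made up 188 of 381 and 221 of 310 macrophage nuclei in MASH and 0 to 2 per chow library.

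The gene called in macrophage nuclei was Hamp (489, 768 and 793 scaled CPM in chow, 153 and 52.3 in MASH, log2 fold change -2.73, SE 0.55, adjusted p = 0.0391), at levels read above as background. The call was lost without chow replicate 1 (adjusted p = 0.0569), chow replicate 2 (0.183) or MASH replicate 2 (0.385). Mt1 (-4.39, adjusted p = 0.0802) and Mt2 (-3.74, adjusted p = 0.0574) were likewise lower and not called. Trf was at -0.29, Fth1 at -0.67 and Ftl1 at -0.58 (adjusted p = 0.898, 0.665 and 0.70). Hamp2, Bmp6 and Tfrc had too few UMIs to be tested.

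In endothelial nuclei 2 of 9 tested genes were called, against 2.37% of all genes. Bmp6 was at 44.9, 47.4 and 59.8 scaled CPM in chow and at 18.8 and 13.7 in MASH, from 15 to 43 UMIs per library. The groups did not overlap, with a log2 fold change of -1.64 (SE 0.37, 95% interval -2.45 to -0.83, adjusted p = 0.0401). The call was lost when chow replicate 2 (adjusted p = 0.0815), chow replicate 3 (0.0787), MASH replicate 1 (0.241) or MASH replicate 2 (0.524) was left out, at log2 fold changes of -1.39 to -1.85. It held in 6 of 16 alternative settings and not by DESeq2 (adjusted p = 0.129). Markers of the class moved with it: all 12 endothelial check markers had negative values (0 rose, 2 fell, median -0.59) and the 4 gate genes had a median of -0.69. In the same sums 2 of 9 tested macrophage check markers rose and 0 fell (median 2.27), and 2 of 7 stellate check markers rose and 0 fell (median 1.37). The part of these shifts in the Bmp6 value was not tested. Bmp2, the other endothelial inducer of hepcidin, was at 564, 480 and 737 in chow and 210 and 259 in MASH (log2 fold change -1.34, SE 0.39, adjusted p = 0.114).

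Hamp was the other gene called in endothelial nuclei (383, 556 and 923 scaled CPM in chow, 183 and 116 in MASH, log2 fold change -2.05, SE 0.48, adjusted p = 0.0437), again at background levels and called in 8 of 17 alternative settings. Mt1 was at -4.20 (adjusted p = 0.0571) and Mt2 at -3.30 (adjusted p = 0.0815). Slc40a1 was at 207, 161 and 129 in chow and 181 and 142 in MASH, with overlapping groups (log2 fold change -0.05, SE 0.35, 95% interval -0.80 to 0.70, adjusted p = 0.97). Tfrc (0.40), Trf (-0.46), Fth1 (-0.74) and Ftl1 (-0.83) were not called, and Hamp2 was not tested.

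**Figure D5:**
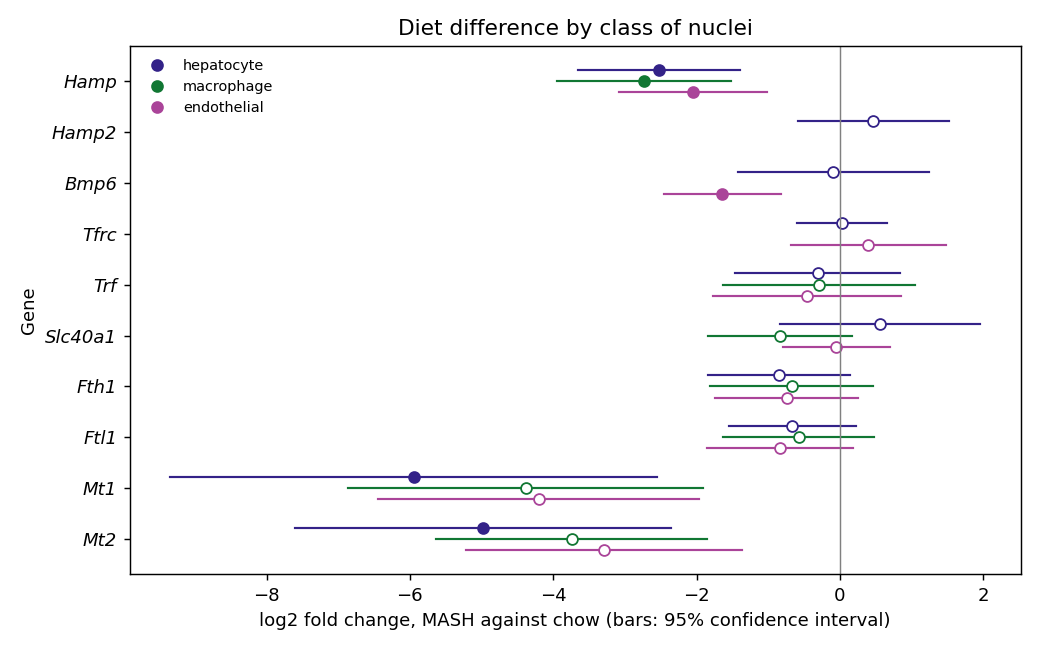
Diet difference of each gene in hepatocyte, macrophage and endothelial nuclei (x axis: log2 fold change, MASH minus chow, with 95% interval; filled symbols passed the test at an adjusted p under 0.05). Hamp is filled in all 3 classes, Mt1 and Mt2 in hepatocyte nuclei and Bmp6 in endothelial nuclei, and no gene is filled on the higher side.

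The control genes of hepcidin in hepatocytes were largely not called. Of 18 tested genes of BMP, SMAD and hepcidin control 0 rose and 1 fell, and their median log2 fold change was -0.09 against -0.01 over all genes. DESeq2 called 2 lower and 0 higher, as did edgeR once chow replicate 3 was left out. For DESeq2 and for fits without chow replicate 3, the share called over all genes is not given. Counts from those fits, here and in the lists below, are therefore not read as results about a list. The gene that fell was Fgl1, a secreted protein that binds BMP ligands, at 384, 442 and 1163 scaled CPM in chow and 73.8 and 93.1 in MASH (-2.99, SE 0.57, adjusted p = 0.0206). Tfr2, which senses transferrin-bound iron upstream of Hamp, was at 394, 405 and 329 in chow and 195 and 188 in MASH, with no overlap but no call (-0.98, SE 0.27, adjusted p = 0.0554). Hjv, the BMP co-receptor of the pathway, was at 137, 87.2 and 56.0 in chow and 186 and 188 in MASH (1.0, adjusted p = 0.109). The BMP target genes Id1 and Smad7 were at 0.55 and 0.23, and Hfe and Tmprss6 at -0.15 and -0.13, none of them called.

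The IL-6 and STAT3 acute-phase list moved further. Of 18 tested genes 0 rose and 6 fell in MASH hepatocytes, while 1211 rose and 617 fell among all 15141 genes tested (12.1% called). The median of the list was -2.52 against -0.01 over all genes and -1.52 over the hepatocyte check list, with which it shares Fgb and Fgg. With chow replicate 3 left out, 1 rose and 9 fell (share over all genes not given), with a median of -1.52. The called gene with the lowest adjusted p was Stat3 itself, at 250, 254 and 433 scaled CPM in chow and 97.2 and 92.9 in MASH (-1.72, SE 0.34, adjusted p = 0.0228). Socs3, the feedback inhibitor of the pathway, was at 84.4, 44.0 and 170 in chow and 17.4 and 15.3 in MASH (-2.61, adjusted p = 0.027), and the fibrinogen chain gene Fga was at -2.36 (adjusted p = 0.0289). The receptor subunit Il6st was at -0.90 (adjusted p = 0.0866).

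Lists for other inputs to the metallothioneins were counted as well. Of 13 genes that respond to glucocorticoids and fasting 2 fell and 0 rose (median -1.29). Among all 15141 genes 617 fell and 1211 rose, or 12.1% called either way. When chow replicate 3 was left out, 5 of 13 fell and 0 rose (median -0.65, share over all genes not given). The 2 that fell with all libraries kept were Fkbp5, a chaperone that restrains the glucocorticoid receptor (94.4, 229 and 268 scaled CPM in chow, 26.5 and 53.8 in MASH, -2.30, adjusted p = 0.0333), and Angptl4, an inhibitor of lipoprotein lipase (-1.58, adjusted p = 0.0239). Of 10 zinc-handling genes 0 were called by edgeR (median -0.49, with 2 lower at an unadjusted p under 0.05 and 2 lower by DESeq2), with the metal-sensing transcription factor Mtf1 at -0.52 and its target Slc30a1, a zinc exporter, at -0.07. Of 8 immediate-early genes, which respond quickly to many stimuli, 0 were called by edgeR (median -0.74, with 1 higher and 3 lower at an unadjusted p under 0.05 and 2 lower by DESeq2). After chow replicate 3 was left out, 3 of these 8 rose (share over all genes not given) and their median was 0.00033.

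Of 18 other genes of iron uptake, release and storage, 2 rose and 0 fell, with a median of -0.17, a share near the 12.1% of all genes called. They were the metalloreductase genes Steap2 (6.48, 6.44 and 5.76 scaled CPM in chow, 14.9 and 20.3 in MASH, 1.50, adjusted p = 0.0179) and Steap3 (6.39, 4.52 and 3.39 in chow, 13.7 and 11.1 in MASH, 1.38, adjusted p = 0.0441). Without chow replicate 3, 1 rose and 1 fell. Of 15 haem genes 0 were called by edgeR in hepatocytes (median -0.07, with 1 higher and 3 lower both at an unadjusted p under 0.05 and by DESeq2).

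The same lists were not called outside hepatocytes. In macrophage nuclei edgeR called 0 of 60 genes over the 7 lists (11 of iron uptake and storage, 7 of haem, 9 of BMP and SMAD, 5 of zinc, 14 acute-phase, 10 responding to glucocorticoids and fasting and 4 immediate-early genes). At an unadjusted p under 0.05, 3 were higher and 21 lower, and DESeq2 called 0 higher and 8 lower. Without chow replicate 3, edgeR called 2 of 70 tested genes higher and 10 lower. Hmox1, which breaks down haem, was at 189, 175 and 557 scaled CPM in chow macrophage nuclei and 71.3 and 69.7 in MASH, with no overlap (-2.15, adjusted p = 0.0854).

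In endothelial nuclei edgeR called 0 of 88 genes over these lists, while 1 was higher and 24 were lower at an unadjusted p under 0.05 and DESeq2 called 0 higher and 8 lower. Without chow replicate 3, edgeR called 2 of 87 higher and 0 lower.

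Haemoglobin transcripts, which mark red blood cells, were called higher in MASH macrophage nuclei for 3 of 4 genes. In the MASH libraries 10 nuclei held 95.7% and 99.2% of those UMIs. Of 4 haemoglobin genes edgeR called 0 in hepatocyte nuclei (median 1.47, 0 at an unadjusted p under 0.05 and 0 by DESeq2) and 0 in endothelial nuclei (4 lower at an unadjusted p under 0.05 and 3 lower by DESeq2), and the macrophage value of Slc40a1 was -0.85 (adjusted p = 0.497) in nuclei with under 3 haemoglobin UMIs.

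The genes most like 3 of the 10 in pattern were found over the 15 library-by-group sums of hepatocyte nuclei, by Pearson's r of log2(CPM + 1) among 8973 genes with a mean of at least 10 CPM. The sums share 5 libraries, so r is a description. For Hamp they were Il6st (0.956), Serpinf2 (0.954), Wsb1 (0.952), C3 (0.949) and C8a (0.947). For Mt1 they were Mt2 (0.990), Cldn14 (0.978), Ahsg (0.975), Serpina10 (0.974) and Gm45774 (0.970), which overlaps Mt2 on the other strand. For Slc40a1 they included Vwce (0.992), Dyrk2 (0.988), Zfhx4 (0.985) and Cmtm8 (0.983).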

How the data were processed

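Per the methods of the study, the authors snap-froze the livers, sorted nuclei, made droplet 3′ libraries and aligned reads with Cell Ranger 8.0.1 against GRCm38 (mm10), counting no intronic reads. The deposited values are raw UMI counts per gene and nucleus, without cell type names or doublet calls. Whether counting used strand is not given in the sources used here.

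Nuclei with at least 300 genes were kept. Scrublet (scanpy 1.11.5) marked 0 to 3 doublets per library by itself, so the highest scores were removed at 0.8% per 1000 nuclei. Classes were gated rather than clustered. Hepatocyte nuclei had at least 2000 UMIs and 1 Hnf4a UMI. Macrophage nuclei had at least 2 UMIs over Clec4f, Cd163 and Gpnmb, and endothelial nuclei at least 2 over Ptprb, Stab2, Kdr and Flt1, with 0 of Hnf4a and under 2 of every other gate. Counts were summed per library and class, and diet was tested by edgeR 4.0.16 (TMM, quasi-likelihood test, filter on low counts by edgeR's default, Benjamini-Hochberg over all genes, called at an adjusted p under 0.05) in R 4.3.3. SE is the log2 fold change divided by the square root of F. The study used Storey's q-values, which were an alternative, as were DESeq2 1.42.0, other filters, scalings and gates, and each library left out. Hepatocyte nuclei were split by a score of 10 pericentral minus 10 periportal markers. On simulated hepatocyte sums with 200 genes changed 4-fold among 14970, the edgeR step recovered 199 with 6 false calls. The simulation gave all genes the same fixed spread and changed only genes above 10 CPM. Mt1 spanned 15.7-fold between chow libraries, so this recovery does not hold for genes that vary as much. Pairing by replicate number was checked and has no source in the labels. The named genes are the 10 genes in every class, and from other lists at most 3 called genes with the lowest adjusted p plus genes that set the reading of the 10 (receptor, inducer, paralog, marker). Saa1, Serpina3n and Lcn2 were named after their values were seen. The genes and lists were chosen with earlier results of these data known. 1 gene among the 5 most like Slc40a1 is not reported here. Shares cover counting error only.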

Additional observations from a re-analysis of the deposited data

Results flagged for a closer look

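The diet difference of 3 of the 10 genes differed between the pericentral and the periportal group of hepatocyte nuclei by a test of the difference itself (edgeR, library as a block), which marks these results for a second look. For Hamp it was -2.06 on the log2 scale, as the fall in MASH was larger on the central side (-3.82) than on the portal side (-1.59). For Hamp2 it was -2.98, with values of 1.29 and -1.66 on the portal and central sides, neither of which was called alone. For Trf it was 0.51, with a portal excess in chow of 1.27 to 1.68 times and in MASH of 1.02 and 1.10 times. With the nuclei split into 5 groups in place of 3, the outermost groups gave -2.15 for Hamp, -2.82 for Hamp2 and 0.55 for Trf, all still called. Reads of Hamp and Hamp2 may be split between the paralogs, and their part in the shared slope was not tested. In MASH the pericentral Hamp level lay below that of endothelial nuclei, which is read as free RNA, and the part of free RNA was not tested either. Zone markers left out of the score also moved with diet, and whether the groups hold the same part of the lobule in both diets was not tested.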

How the results depend on the processing

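Over 19 alternative settings in hepatocyte nuclei, Hamp (-2.87 to -2.10), Mt1 (-6.46 to -3.59) and Mt2 (-5.45 to -3.22) stayed lower in MASH and were called in 16, 15 and 16 of them. The calls were lost without chow replicate 2 and without either MASH library, which leaves 1 library in that group. That of Mt1 was also lost under the stricter count filter (-5.88, adjusted p = 0.0553). Leaving out 1 library at a time changed how many of the 10 genes were called in each class and group of nuclei. It also changed how many were called for the difference between the pericentral and periportal groups. The number called over all genes changed as well in each class and group, so these changes are not particular to the 10 genes. Some of these fits hold 1 MASH library, so no range of the counts is given. With a library left out the uncalled values changed sign within -0.73 to 0.36 for Bmp6, -0.17 to 0.19 for Tfrc and -0.63 to 0.073 for Trf in hepatocyte nuclei, -1.09 to 0.29 for Trf in macrophage nuclei, -0.0086 to 0.78 for Tfrc and -0.22 to 0.17 for Slc40a1 in endothelial nuclei, and -0.0088 to 0.59 for Hamp2 in the middle group. The difference between groups ran from -1.28 to 0.50 for Mt1 and -1.34 to 0.37 for Mt2.

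The number of the 10 genes called in macrophage nuclei was 2 by DESeq2, 3 with no filter on low counts, 2 by Storey's q-values, 0 with called doublets kept and 3 with only nuclei under 2000 UMIs. In alternatives chosen after seeing the data it was 2 with nuclei under 3 haemoglobin UMIs, 0 with nuclei without Gpnmb and 3 without TMM scaling. In endothelial nuclei it was 1 by DESeq2, 4 with no filter, and 0 with the stricter filter, with mitochondrial shares under 5%, with at least 3 gate UMIs or with nuclei under 2000 UMIs. The number called over all genes moved too. Across the settings that kept every library, the replicate block included, it was 13 to 323 in macrophage nuclei, against 75 in the main fit. For endothelial nuclei it was 81 to 725, against 239. Among values that were never called, hepatocyte Tfrc became -0.0033 with RLE size factors, -0.017 by DESeq2 and -0.043 with doublets kept, and Bmp6 became 0.25 with doublets kept, 0.51 with no Hnf4a UMI needed, 0.60 with under 2 UMIs of other gates, 0.15 after thinning to 2000 UMIs and 0.16 without TMM scaling. Without TMM scaling the median of all genes in hepatocyte nuclei moved from -0.01 to 0.31, and Trf became 0.086. Endothelial Tfrc became -0.042 with mitochondrial shares under 5%, and endothelial Slc40a1 became 0.11 with 1 gate UMI, 0.37 under 2000 UMIs and 0.032 without TMM scaling. Hamp2 in the middle group became -0.084 with 5 groups. The cause was not tested.

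The replicate numbers are shared by chow and MASH but nothing ties them to a litter or day, and the deviations of same-numbered hepatocyte sums correlated at -0.04 and -0.14. Under the replicate block, 3 of the 10 genes were called in macrophage nuclei and 0 in endothelial nuclei, and hepatocyte Tfrc was -0.02 and Trf 0.15. Hepatocyte Hamp, Mt1 and Mt2 stayed called under the block at -2.11, -3.59 and -3.22.

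Depth limits Bmp6 and Hamp2 in hepatocyte nuclei and most genes in the 57 to 112 macrophage nuclei of a chow library.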
